A study of Mus musculus with 11 samples.

Results

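Genes that mark the lineages and layers of dermal fibroblasts were followed across sorted fibroblasts from normal and wounded mouse skin. The 10 genes Dpp4, Lrig1, Prdm1, En1, Dlk1, Ly6a, Pdpn, Thy1, Sox2 and Cd24a were chosen by name, and each had 1 row among the 47643 gene symbols of the expression table. By the labels, fibroblasts were isolated as live CD140a+ cells that lacked CD45, CD3, CD11b and F4/80, and CD140a is the protein of Pdgfra. They came from normal back skin (NS) or from excisional wounds 5 days after injury (5dw). The mice were WT or Act, and Act mice carry a transgene for the activin A subunit (INHBA) under the keratin 14 promoter, which is active in keratinocytes and not in fibroblasts. All animals, controls included, were females of 9 to 12 weeks with a mixed background of 50% CD-1 and 50% C57Bl/6. Each library held RNA pooled from 3 animals, and there were 3 such libraries each for WT NS, Act NS and WT 5dw but 2 for Act 5dw (numbered 1 and 3), since the study left out 1 of that group at quality control. The replicates are pools, so p-values measure the spread between pools and not between animals.

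The dermis forms from fibroblast lineages that settle at different depths. The papillary layer lies under the epidermis and supports hair follicles, the reticular layer below it makes the dense collagen network, and the deepest fibroblasts border the fat and the fascia, while the dermal papilla is a cluster of specialised fibroblasts at the base of each hair follicle. In mouse back skin, Lrig1 and Prdm1 have been used to mark papillary cells, Dlk1 and Ly6a (Sca1) reticular and hypodermal cells, and Sox2 cells of the dermal papilla. Dpp4 (CD26) and past expression of En1 mark dorsal fibroblasts that deposit scar matrix, Pdpn and Thy1 are surface proteins shared by several of these populations, and CD24 marks adipocyte progenitors among Ly6a-positive cells.

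Promoter sequences are shown for 3 of the genes, which are Dpp4 and Prdm1, lower in wounds of both genotypes, and Pdpn, higher in both. They run from 250 bases before to 50 bases after the start given by RefSeq on GRCm38.p6, and the promoter table used here held 7 of the 10 genes, without Ly6a, Thy1 and Cd24a. The Dpp4 and Pdpn windows lie at the start of the annotated gene, and the Prdm1 window lies at a start inside it. All 3 genes lie on the minus strand, and each sequence reads 5′ to 3′ along the gene. Capitals mark matches on either strand to 4 short motifs, which are the TATA box (letters TATAAA), the CCAAT box (letters CCAAT), the GC box (letters GGGCGG) and the AP-1 site (letters TGANTCA).
Dpp4, chr2:62412182-62412481: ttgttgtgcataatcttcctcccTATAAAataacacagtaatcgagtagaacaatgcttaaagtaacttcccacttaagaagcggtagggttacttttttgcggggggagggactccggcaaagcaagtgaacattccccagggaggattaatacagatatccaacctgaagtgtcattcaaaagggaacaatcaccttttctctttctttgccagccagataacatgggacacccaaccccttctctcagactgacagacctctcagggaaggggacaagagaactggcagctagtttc
Prdm1, chr10:44458699-44458998: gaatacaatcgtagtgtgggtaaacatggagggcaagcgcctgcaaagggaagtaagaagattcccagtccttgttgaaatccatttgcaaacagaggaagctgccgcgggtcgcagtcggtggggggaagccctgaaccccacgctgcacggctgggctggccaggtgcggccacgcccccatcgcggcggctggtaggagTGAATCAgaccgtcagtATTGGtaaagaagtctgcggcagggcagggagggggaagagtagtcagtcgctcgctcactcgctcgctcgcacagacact
Pdpn, chr4:143299515-143299814: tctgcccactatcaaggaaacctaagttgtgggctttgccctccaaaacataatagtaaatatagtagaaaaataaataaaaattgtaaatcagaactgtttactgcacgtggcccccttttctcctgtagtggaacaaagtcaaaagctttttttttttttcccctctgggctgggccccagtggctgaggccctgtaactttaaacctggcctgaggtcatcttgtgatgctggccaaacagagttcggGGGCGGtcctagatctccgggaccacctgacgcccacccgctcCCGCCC
The Dpp4 window held 1 TATA box match, the Prdm1 window 1 AP-1 match and 1 CCAAT box match, and the Pdpn window 2 GC box matches, none of which overlapped. Among 32851 promoter windows of this length, 13.6% held a TATA box, 37.4% a CCAAT box, 35.7% a GC box and 7.81% an AP-1 site. The matches describe letters in these windows and not bound factors.

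Expression was given as RPKM, a read count divided by gene length and by the mapped reads of the library, so that levels can be compared between genes. The libraries held 18649322 to 39702138 mapped reads. Each WT 5dw library held 38740401 or more and every other library 29718953 or fewer, so depth was tied to that group. Sorted cells carried fibroblast transcripts, with Pdgfra between 29.6 and 65.3 RPKM and Col1a1 between 2092 and 10277 RPKM. The common leukocyte gene Ptprc (CD45) lay between 0.00822 and 0.0498 RPKM. Keratinocyte transcripts were present, since 14 of 14 listed markers were detected and their summed level was 1267 to 4709 RPKM in NS and 128 to 1100 RPKM in 5dw. In these bulk libraries, fewer cells of a type and less RNA per cell cannot be told apart.

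A gene was tested where 2 or more libraries had 1 RPKM or more, which 9 of the 10 markers met, and their mean NS levels ran from 2.33 RPKM for Dlk1 to 741 RPKM for Ly6a. Thy1 followed Ly6a with a mean of 250 RPKM, then came Pdpn with 88.6 and Dpp4 with 71.2, whose NS ranges overlapped. Cd24a, Lrig1 and En1 had NS means of 18.6, 16.7 and 15.4 RPKM and could not be ordered beyond the spread of their libraries. Prdm1 had a mean of 7.60 RPKM, above Dlk1 in every NS library. Sox2 did not reach 1 RPKM in any library and was left out of the test, and 8 of the markers reached 1 RPKM in all libraries.

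**Figure D1:**
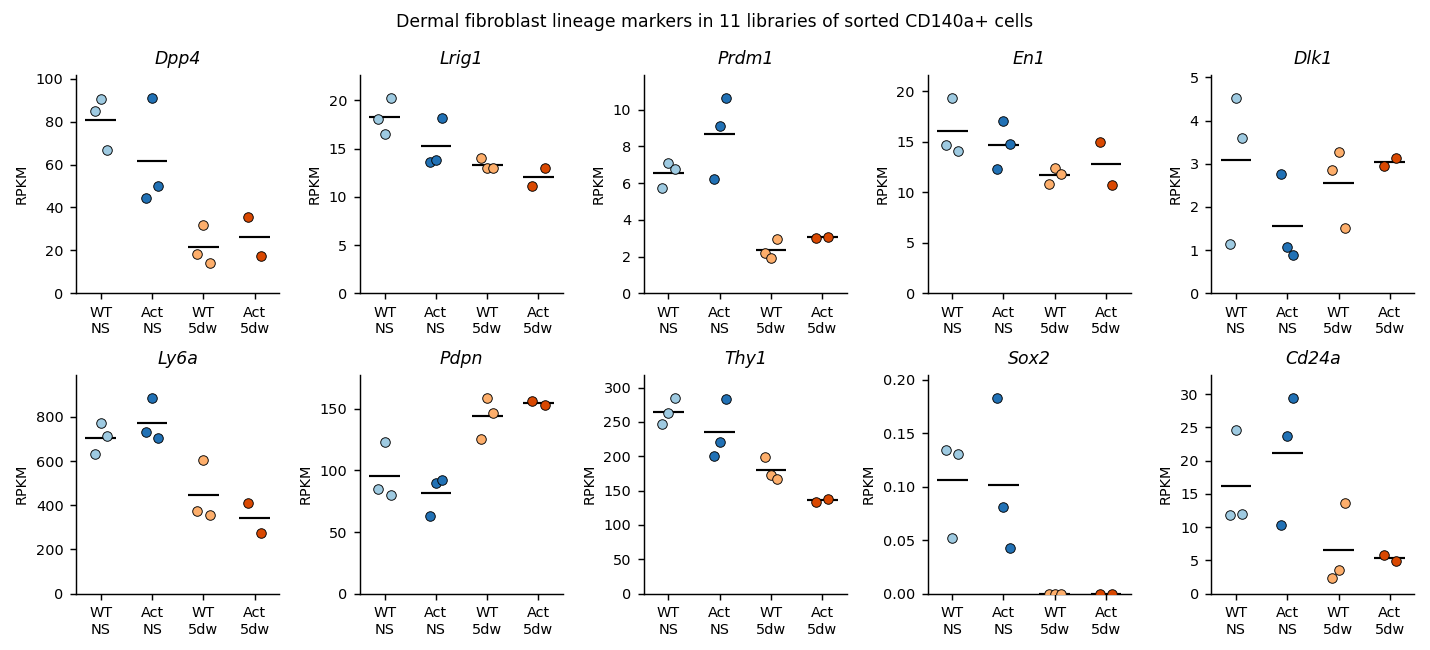
RPKM of the 10 lineage markers in each library (points) with the group mean (line), for WT NS, Act NS, WT 5dw and Act 5dw, each panel on its own linear axis from 0. Dpp4, Prdm1, Ly6a and Thy1 were lower in all 5 wound libraries than in all 6 NS libraries, Pdpn was higher, and Sox2 was at 0 in every wound library. Of all genes tested, 38.9% were lower in this way and 8.45% higher.

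Wounding was compared first, within each genotype, to ask which lineage markers differ between fibroblasts of normal and wounded skin. With limma on log2(RPKM + 0.5) and an adjusted p under 0.05, 6 of the 9 genes tested fell in WT wounds (Dpp4, Prdm1, Cd24a, Ly6a, Thy1 and Lrig1) and Pdpn rose. In Act wounds 5 fell (Dpp4, Prdm1, Cd24a, Ly6a and Thy1) and Pdpn rose. These shares stand against a background in which 58.3% of the 11979 genes tested were called in WT (48.8% lower and 9.45% higher) and 45.6% in Act (36.5% lower and 9.04% higher). The count of 7 in 9 is read against that background and is not a result about the markers as a group. The median log2 fold change (log2FC) of all genes was -0.40 in WT and -0.31 in Act, and that of the 9 markers was -0.56 and -0.77. After median-ratio scaling, which sets the typical gene near 0, 22.2% of genes were lower and 22.4% higher in WT, and 20.8% lower and 19.9% higher in Act. Then 3 markers were called in WT (Dpp4 and Prdm1 lower, Pdpn higher), where 44.6% of all genes were, and 4 in Act (Prdm1, Ly6a and Thy1 lower, Pdpn higher), where 40.7% were. Prdm1 and Pdpn were called in both genotypes with either scaling.

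**Figure D2:**
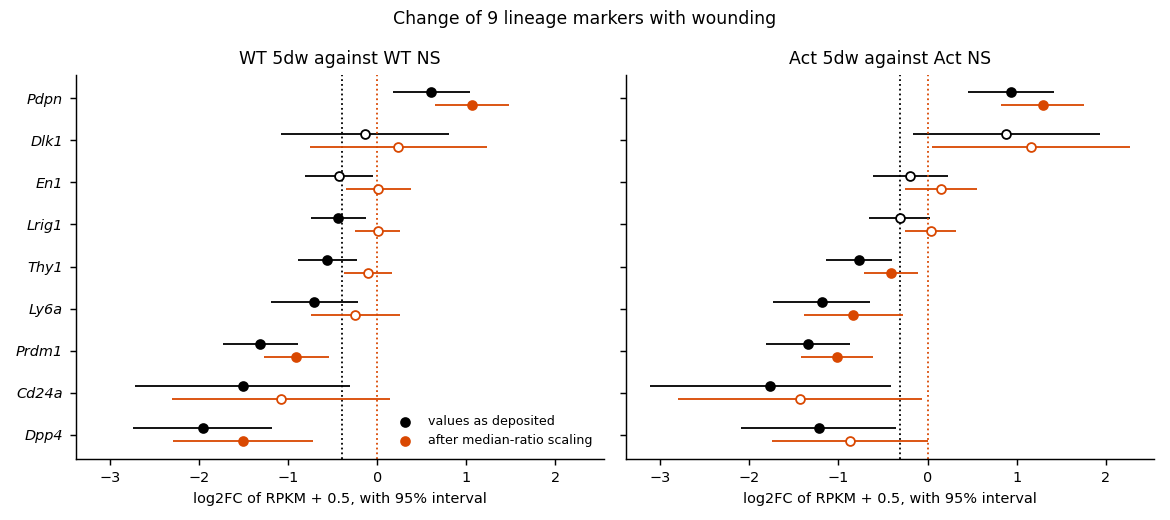
Change with wounding of the 9 markers tested in WT (left) and Act (right), as log2FC of RPKM + 0.5 with the 95% interval, from the deposited values (black) and after median-ratio scaling (orange). Filled points have an adjusted p under 0.05, and dotted lines mark the median of all genes tested, -0.40 in WT and -0.31 in Act before scaling.

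Dpp4 encodes a dipeptidyl peptidase on the cell surface and lies on the minus strand of chromosome 2 (62330073 to 62412231, GRCm38). Its RPKM was 84.7, 90.5 and 66.9 in WT NS, 44.3, 91.0 and 50.0 in Act NS, 18.4, 31.7 and 14.2 in WT 5dw, with 35.6 and 17.3 in Act 5dw. All wound libraries lay below all NS libraries, a pattern that 38.9% of the genes tested shared (47.3% had no overlap in either direction), and the 2 lower Act NS libraries stood nearest to the wounds. Dpp4 fell by 1.96 on the log2 scale in WT (SE 0.35, limma, adjusted p = 0.00098) and fell by 1.22 in Act (SE 0.40, limma, adjusted p = 0.027). After scaling the log2FC was -1.51 in WT and -0.87 in Act, where the call was lost (limma, adjusted p = 0.10). Without Act 5dw replicate 3 or Act NS replicate 2, the Act log2FC was -0.71 or -0.91, and neither was called. The difference between the genotypes' responses was 0.73 (95% interval -0.44 to 1.91) and not called. Of the 31-base sequences of Dpp4, 3.22% also lie in the antisense gene Gm13561.

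The 5 wound libraries differed in Dpp4 by 2.51-fold from lowest to highest. WT 5dw replicate 2 and Act 5dw replicate 1 stood at 135% and 152% of the wound mean, and the other 3 at 60.5% to 78.7%. Those same 2 libraries were the highest in Cd34, a surface marker of deep dermal and adipogenic fibroblasts (125% and 129%), and in Cd55, a complement regulator of the fascia (146% and 126%). They were the lowest in the contractile genes Acta2 (76.9% and 63.8%, against 109% to 136%) and Tagln (77.3% and 65.3%, against 117% to 121%). Of the other markers, Ly6a (149% and 102%, against 68.4% to 92.3%), En1 (102% and 123%, against 88.4% to 97.2%) and, by a narrow margin, Pdpn (107% and 105%, against 85.0% to 103%) were also highest in the same libraries, while Thy1, Lrig1, Prdm1, Dlk1 and Cd24a were not ordered this way. Both libraries were above the other 3 in 4 of the 9 markers tested, a count that includes Dpp4, from which the pair was picked. They were above the other 3 in 15.9% of all genes tested and below them in 16.7%. Since Dpp4 was fixed in advance, the count of markers is not compared with these shares. The 2 libraries belong to different genotypes. No test was made of this pattern, which was seen in the values.

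**Figure D3:**
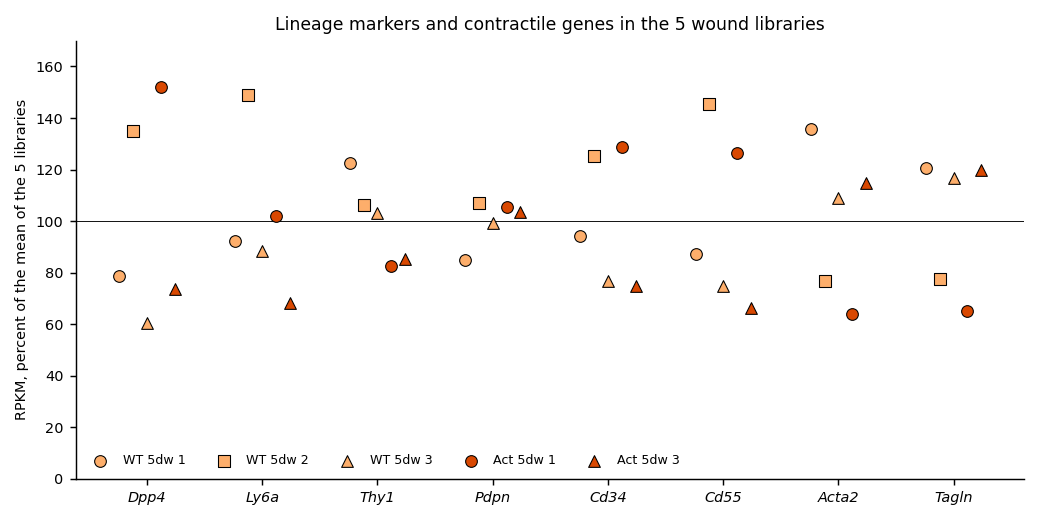
RPKM of 4 lineage markers (Dpp4, Ly6a, Thy1, Pdpn), the deep fibroblast genes Cd34 and Cd55 and the contractile genes Acta2 and Tagln in the 5 wound libraries, as percent of their mean over those libraries; each point is 1 library. WT 5dw replicate 2 and Act 5dw replicate 1 were highest in Dpp4, Cd34 and Cd55 and lowest in Acta2 and Tagln.

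Ly6a, the GPI-anchored surface protein Sca1, was the most abundant of the 10. It measured 633, 772 and 715 RPKM in WT NS, 733, 884 and 706 in Act NS, 374, 603 and 358 in WT 5dw, with 412 and 277 in Act 5dw. The tissues did not overlap, although WT 5dw replicate 2 came close to the lowest NS library. Ly6a fell by 0.70 in WT (SE 0.22, limma, adjusted p = 0.019) and fell by 1.19 in Act (SE 0.25, limma, adjusted p = 0.0031). The scaled log2FC was -0.25 in WT, no longer called, and -0.83 in Act (limma, adjusted p = 0.023). The WT call was also lost without WT NS replicate 2 (-0.64), WT NS replicate 3 (-0.69), WT 5dw replicate 1 (-0.60) or WT 5dw replicate 3 (-0.57). As much as 31.9% of its sequence, counted in runs of 31 bases, is shared with other genes (8.42% with Ly6i), so the division of reads within the Ly6 family is uncertain.

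Its neighbour Ly6c1 on chromosome 15 had the most similar pattern of all genes tested (Pearson r = 0.986 over 11 libraries, a description in which the 2 tissues carry much of the likeness). Ly6c1 fell by 1.23 in WT (limma, adjusted p = 0.0018) and by 1.65 in Act (limma, adjusted p = 0.00099). Ly6e, another gene of the same family nearby, measured 93.9 to 161 RPKM in NS and 81.6 to 174 in 5dw, and its tissues overlapped. Its log2FC was 0.47 in WT (limma, adjusted p = 0.051) and -0.57 in Act (limma, adjusted p = 0.046), and its interaction was not called (limma, adjusted p = 0.81).

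Dlk1, a transmembrane protein of the Notch ligand family, was low and variable. Its RPKM was 1.15, 4.52 and 3.60 in WT NS, 2.77, 1.06 and 0.877 in Act NS, 2.86, 3.27 and 1.51 in WT 5dw, with 2.95 and 3.12 in Act 5dw. NS libraries held both the lowest and the highest values and enclosed all the wound values. The log2FC was -0.14 in WT (SE 0.43, 95% interval -1.08 to 0.80) and 0.88 in Act (SE 0.48, 95% interval -0.17 to 1.94), and neither was called. In Act it was called without Act NS replicate 1 (1.27, limma, adjusted p = 0.042), with both NS libraries numbered 1 left out (1.27, limma, adjusted p = 0.0046) and with array weights (1.13, limma, adjusted p = 0.034). In WT the sign turned when WT NS replicate 2 (0.18) or replicate 3 (0.033) was left out, or WT 5dw replicate 3 (0.14), and after scaling (0.24).

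Dlk1 belongs to a cluster of imprinted genes on chromosome 12 with the noncoding genes Meg3 and Rian downstream. The RPKM of Meg3 was 14.2 to 21.2 in NS and 46.0 to 53.4 in 5dw. It rose by 1.38 in WT (limma, adjusted p = 5.7e-05) and 1.47 in Act (limma, adjusted p = 0.00011). Rian rose by 1.41 and 1.69 on the same scale, from 19.1 to 40.9 RPKM in NS to 75.6 to 98.4 in 5dw. Thus the noncoding genes of the cluster separated the tissues and Dlk1 did not.

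Among 10 imprinted growth genes, 7 rose and 1 fell in WT, where 9.45% of all genes rose and 48.8% fell, and 8 rose in Act, where 9.04% rose and 36.5% fell. After scaling 8 rose and 1 fell in WT and 8 rose in Act, against 22.4% and 19.9% of all genes that rose. H19 rose from a mean of 10.1 to 261 RPKM in WT (log2FC 4.62) and from 9.49 to 446 in Act (log2FC 5.54). Plagl1, a transcription factor linked to this network, rose by 1.996 and 2.546. Igf2, the growth factor gene beside H19, remained between 1.24 and 3.15 RPKM in every library. The median log2FC of the list was 0.78 in WT and 1.43 in Act, against -0.40 and -0.31 for all genes.

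Prdm1 encodes the transcriptional repressor Blimp1 and lies on the minus strand of chromosome 10 (44437177 to 44528501). It measured 5.74, 7.11 and 6.77 RPKM in WT NS, 6.25, 9.09 and 10.6 in Act NS, 2.19, 1.92 and 2.98 in WT 5dw, with 3.01 and 3.08 in Act 5dw. The lowest NS library was above the highest wound library. Prdm1 fell by 1.31 in WT (SE 0.19, limma, adjusted p = 0.00026) and by 1.34 in Act (SE 0.21, limma, adjusted p = 0.00068), and after scaling by 0.91 and 1.02. It was called in each of 23 settings in both genotypes, with log2FC between -1.48 and -0.84 in WT and between -1.54 and -0.98 in Act.

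Prdm1 is also made by differentiating keratinocytes, and both Prdm1 and the summed keratinocyte markers were lower in every wound library than in every NS library. The 2 NS libraries with the lowest keratinocyte sum, both numbered 1 (1267 and 1268 RPKM), had the lowest NS Prdm1, and Act NS replicate 3, with the highest sum (4709), had the highest. WT NS replicate 3 (2304) had 6.77 RPKM of Prdm1, below the 7.11 of WT NS replicate 2 (2070). WT 5dw replicate 3, with a sum of 1100, had 2.98 RPKM of Prdm1, against 5.74 and 6.25 in the NS libraries numbered 1. Act 5dw replicates 1 and 3, with sums of 276 and 331, had 3.01 and 3.08. WT 5dw replicate 2 (253) had 1.92, below the 2.19 of WT 5dw replicate 1 (128), so the order of the sums was not that of Prdm1 within wounds. WT 5dw replicate 3 had 528 RPKM of the basal gene Krt14 and 31.9 of the suprabasal gene Krt10, where WT NS replicate 1 had 192 and 297. The genes most like Prdm1 were Vdr, Mt4 and Oas1f (r = 0.987, 0.985 and 0.984 over 11 libraries). The part of these transcripts in the change of Prdm1 was not tested.

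Lrig1, a membrane protein that restrains EGF receptor signalling, varied little. Its RPKM was 18.04, 16.5 and 20.2 in WT NS, 13.6, 13.8 and 18.2 in Act NS, 14.05, 12.97 and 12.95 in WT 5dw, with 11.2 and 13.0 in Act 5dw. WT tissues did not overlap, but across both genotypes they did. The log2FC was -0.44 in WT (SE 0.14, limma, adjusted p = 0.020), close to the median of all genes, and 0.0068 after scaling, so its direction depended on the scaling. The WT call was lost without WT NS replicate 3 (-0.36), WT 5dw replicate 2 (-0.42) or WT 5dw replicate 3 (-0.42). In Act the log2FC was -0.31 (SE 0.16, limma, adjusted p = 0.12). Of its 31-base sequences, 2.03% lie in the overlapping gene Slc25a26.

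En1, a homeobox transcription factor, lies on chromosome 1 (120602418 to 120607992). It measured 14.7, 19.3 and 14.1 RPKM in WT NS, 12.3, 17.1 and 14.7 in Act NS, 10.9, 12.4 and 11.8 in WT 5dw, with 14.96 and 10.7 in Act 5dw. All WT wound libraries were below all WT NS libraries, while Act 5dw replicate 1 lay within the NS range. The log2FC was -0.43 in WT (SE 0.17, limma, adjusted p = 0.052) and -0.19 in Act (SE 0.19, limma, adjusted p = 0.43). The WT value was called in 11 of 23 settings, among them the replicate number as a block (limma, adjusted p = 0.031). Others of these left out WT NS replicate 3 (-0.51), Act NS replicate 1 or 2, or either Act 5dw library. After scaling the log2FC was 0.013 and 0.15, values near that of the typical gene. Its transcript level says nothing of past expression, which is what marks the lineage. The related gene En2 did not exceed 0.0688 RPKM in any library.

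Pdpn, a mucin-like membrane protein that binds CLEC-2, was called higher in both genotypes, as none of the other 8 genes was. Its RPKM was 84.7, 123 and 79.7 in WT NS, 63.2, 89.7 and 91.9 in Act NS, 126, 159 and 147 in WT 5dw, with 156 and 153 in Act 5dw. All wound libraries lay above all NS libraries, as for 8.45% of the genes tested, and WT NS replicate 2 came closest to the wounds. Pdpn rose by 0.61 in WT (SE 0.20, limma, adjusted p = 0.021) and 0.94 in Act (SE 0.22, limma, adjusted p = 0.0056), and by 1.06 and 1.29 after scaling. The WT call was lost without WT NS replicate 1 (0.53), WT NS replicate 3 (0.49), WT 5dw replicate 2 (0.53) or WT 5dw replicate 3 (0.59).

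Pdpn is also a marker of lymphatic endothelium. Of 6 lymphatic markers, 5 were below 1 RPKM in every library, and their sum was 1.11 to 9.33 RPKM in NS and 0.532 to 1.103 in 5dw. Their part in the level of Pdpn was not tested. The gene most like Pdpn was Il33, an alarmin of the interleukin-1 family (r = 0.981 over 11 libraries), with mean levels of 40.5 RPKM in NS and 124 in 5dw.

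Thy1 (CD90) was the second most abundant marker. It measured 247, 264 and 284 RPKM in WT NS, 201, 221 and 284 in Act NS, 199, 172 and 168 in WT 5dw, with 134 and 138 in Act 5dw. The tissues did not overlap, although Act NS replicate 1 and WT 5dw replicate 1 nearly met. Thy1 fell by 0.56 in WT (SE 0.15, limma, adjusted p = 0.0083) and by 0.77 in Act (SE 0.17, limma, adjusted p = 0.0038). The scaled log2FC was -0.10 in WT, not called, and -0.41 in Act (limma, adjusted p = 0.033). Both Act wound libraries were below the 3 WT wound libraries, with a log2FC of -0.39 (95% interval -0.76 to -0.02). The unadjusted p of 0.039 did not pass after adjustment (limma, adjusted p = 1). Of the 9 markers tested, 1 was below in this way (Thy1) and 1 above (Prdm1), against 15.2% and 7.87% of all genes tested.

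Thy1, Dpp4 and Ly6a are also found on T cells. Cd3d and Trac did not exceed 0.643 and 0.793 RPKM in any library. Of the 8 T cell markers listed, 2 were tested, and 1 was called higher and 1 lower in each genotype. The higher one was Cd3e, with 2.94 to 33.9 RPKM in NS and 55.5 to 105 in 5dw. Cd3e thus moved against Thy1, Dpp4 and Ly6a, while the other marker tested fell as they did. No source of the Cd3e reads was tested.

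Sox2, a transcription factor of the dermal papilla, was close to the limit of detection. The libraries held 7, 2 and 8 reads in WT NS, 9, 4 and 2 in Act NS and 0 in each of the 5 wound libraries. The 32 NS reads corresponded to 0.108 RPKM (95% exact Poisson interval 0.0736 to 0.152, counting error only). The 0 reads in 163387061 mapped wound reads allow up to 3 reads over the group, or 0.00893 RPKM, so that the summed NS level was at least 12.05-fold this floor, without the counting error of the NS reads. Sox2 overlaps the noncoding gene Sox2ot on the same strand, and their reads cannot be told apart. The markers of Schwann cells and melanocytes, some of which also use Sox2, moved with it, with a sum of 10.8 to 16.6 RPKM in NS and 2.50 to 3.68 in 5dw. Merkel cells are another Sox2-positive type, and the sum of their 6 markers was 2.04 to 10.9 RPKM in NS and 1.35 to 6.05 in 5dw, led by Krt20 (means 2.46 and 1.102), while their defining gene Atoh1 was at 0 in every NS library. The part of other cell types in the Sox2 reads was not tested.

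Cd24a, a GPI-anchored mucin, was the most variable of the abundant markers in WT NS, Act NS and WT 5dw. Its SD there was 45.7%, 46.1% and 94.2% of the mean. In Act 5dw Dpp4 varied more (48.9%, against 10.3% for Cd24a). The RPKM of Cd24a was 11.8, 24.6 and 12.0 in WT NS, 10.4, 23.7 and 29.4 in Act NS, 2.42, 3.57 and 13.6 in WT 5dw, with 5.75 and 4.97 in Act 5dw. The tissues overlapped through WT 5dw replicate 3, which exceeded 3 of the 6 NS libraries. Cd24a fell by 1.51 in WT (SE 0.55, limma, adjusted p = 0.035) and by 1.76 in Act (SE 0.61, limma, adjusted p = 0.036), and neither was called after scaling (limma, adjusted p = 0.14 and 0.089). Without WT 5dw replicate 3 the WT log2FC was -2.18 and called. It was not called without WT NS replicate 2 (-1.17), WT NS replicate 3 (-1.67), WT 5dw replicate 1 (-1.05) or WT 5dw replicate 2 (-1.29). In Act the call was lost without Act NS replicate 2 (-1.62), Act NS replicate 3 (-1.47), Act 5dw replicate 1 (-1.86) or Act 5dw replicate 3 (-1.67).

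Cd24a is also a gene of epithelial cells, and the summed keratinocyte markers moved with it. They were 1267, 2070 and 2304 RPKM in WT NS, 1268, 3011 and 4709 in Act NS, 128, 253 and 1100 in WT 5dw, with 276 and 331 in Act 5dw. WT 5dw replicate 3 was the wound library highest in both, and Act NS replicate 3 the NS library highest in both. Of the 14 keratinocyte markers, 13 fell in each genotype, where 48.8% of all genes fell in WT and 36.5% in Act. After scaling 11 fell in each, against 22.2% and 20.8% of all genes. None of the 14 was at 0 in all libraries. The genes most like Cd24a were Urah, Ly6d, an epithelial gene of the Ly6 family, and Pkp1, a desmosome gene, with r of 0.965, 0.965 and 0.963 over 11 libraries. The part of keratinocyte transcripts in the change of Cd24a was not tested.

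**Figure D4:**
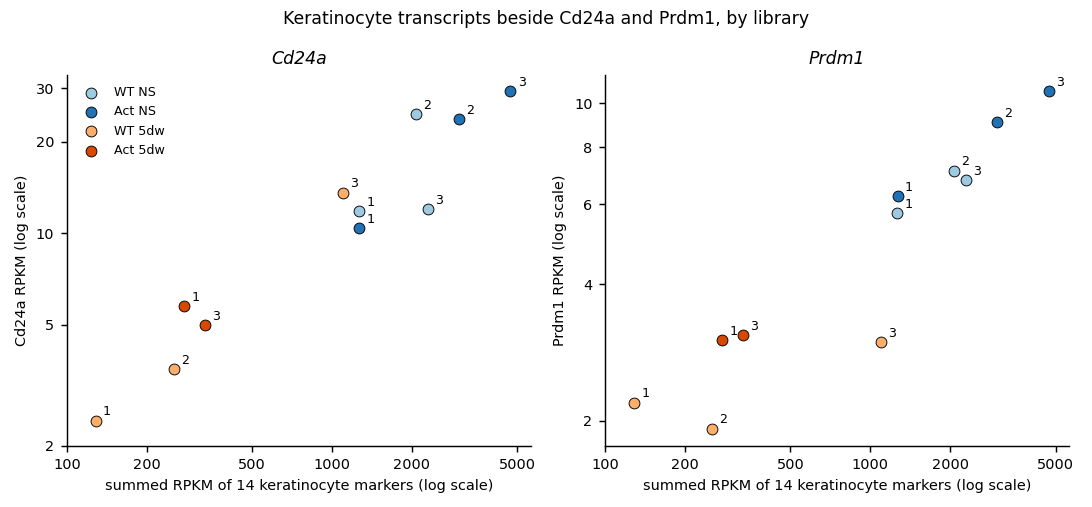
RPKM of Cd24a (left) and Prdm1 (right) against the summed RPKM of 14 keratinocyte markers, log scales on both axes, with 1 point per library numbered by replicate. WT 5dw replicate 3, with a keratinocyte sum of 1100, lay among the NS libraries for Cd24a (13.6 RPKM) and with the other wound libraries for Prdm1 (2.98 RPKM).

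Other lineage genes were taken from lists for each layer, and their counts are read against the shares of all genes given above (48.8% lower and 9.45% higher in WT and 36.5% and 9.04% in Act, or 22.2% and 22.4% in WT and 20.8% and 19.9% in Act after scaling). Of 10 papillary genes, which include many of the Wnt pathway, 9 fell and 1 rose in each genotype, with a median log2FC of -2.07 in WT and -1.61 in Act that stayed at -1.73 and -1.36 after scaling. Rspo1, a Wnt agonist, fell from a mean of 17.8 to 0.348 RPKM in WT (log2FC -4.42) and from 17.2 to 0.850 in Act (log2FC -3.70). Rspo1 was under 1 RPKM in every wound library and met the filter only through NS. A gene admitted in this way can be tested only as lower in wounds, and the count of genes that fell includes it. Ntn1, a guidance cue, fell by 3.26 and 3.52. Wif1, a Wnt inhibitor, fell by 4.01 in WT and by 1.74 in Act. Ptk7, a Wnt co-receptor, rose by 1.55 and 1.25. All 4 passed the test in both genotypes.

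Of 10 reticular and fascia genes, 4 fell and 1 rose in WT, and 5 fell and 1 rose in Act. The median log2FC was -0.38 in WT, near that of all genes, and -0.69 in Act. Procr, the protein C receptor, fell by 1.44 and 1.201, Dpt, a collagen-binding matrix protein, by 1.44 and 1.01, and Cd55 by 1.18 and 0.97, while Mfap5, a microfibril protein, rose by 0.80 and 1.09. After scaling, 2 of the 10 fell and 2 rose in WT, and 1 fell and 2 rose in Act. The counts with either scaling were near the shares of all genes and are not a result about this list.

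Of 10 dermal papilla genes tested, 7 fell and 1 rose in WT, and 5 fell in Act, while after scaling 7 fell and 1 rose in WT, and 4 fell and 1 rose in Act. Alpl, a phosphatase used to stain the papilla, fell by 3.19 in WT and by 2.46 in Act. Corin, a protease of the papilla, fell by 2.99 and 2.15, and Sox18 by 2.95 and 2.14. Alpl and Corin were under 1 RPKM in every WT wound library. Crabp1, a retinoid-binding protein, rose by 1.46 in WT, while in Act its log2FC was 0.51 (limma, adjusted p = 0.20), or 0.87 and called after scaling (limma, adjusted p = 0.040), and the interaction was not called (limma, adjusted p = 1.0).

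Of 5 genes of the dermal sheath and arrector pili muscle that were tested, 3 rose and 1 fell in each genotype. Acta2, smooth muscle actin, rose by 3.38 and 3.16 and Tagln by 2.39 and 2.12, and both are also genes of wound myofibroblasts. Itga8, an integrin of the sheath and muscle, fell by 2.46 and 2.21. Of 8 adipocyte precursor genes, 7 fell in WT and 6 in Act, and none rose, while after scaling 5 fell in each. The regulators of fat cell formation Cebpa and Pparg fell by 2.01 and 1.45 in WT and by 2.51 and 1.89 in Act, and Icam1 by 1.41 and 1.61.

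Of 16 family relatives tested, 9 fell and 3 rose in WT, and 8 fell and 2 rose in Act. After scaling 4 fell and 4 rose in WT, and 5 fell and 4 rose in Act, so these counts too stayed near the shares of all genes. Sox11, a relative of Sox2, rose from a mean of 0.852 to 4.79 RPKM in WT and from 0.876 to 5.27 in Act. Prdm8, a relative of Prdm1, fell by 2.02 and 1.62. Ly6d, of the Ly6 family, fell by 1.95 and 2.96.

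**Figure D5:**
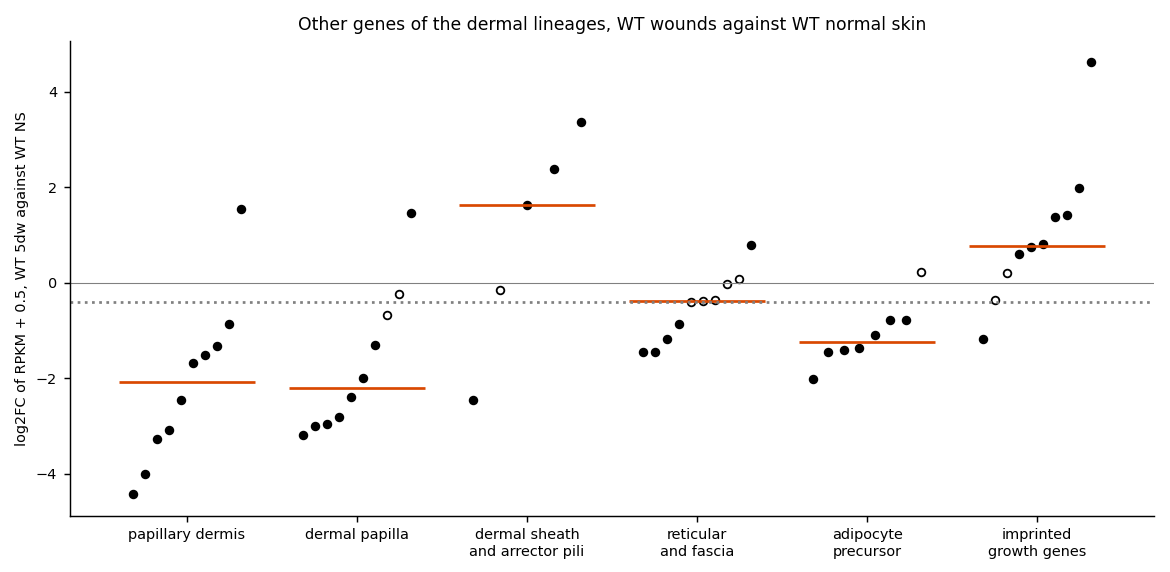
Change of other lineage genes between WT 5dw and WT NS, as log2FC of RPKM + 0.5, with 1 point per gene, filled where the adjusted p is under 0.05. Orange lines mark the median of each list and the dotted line the median of all genes tested, -0.40; the papillary list had a median of -2.07 and the imprinted list one of 0.78.

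The genotypes were compared to ask whether extra activin from keratinocytes is accompanied by another balance of lineage markers. Of the 9 genes tested, 0 were called between Act NS and WT NS, where 0.0167% of all genes were called, 0 between Act 5dw and WT 5dw, where 0.0334% were (0.025% lower), and 0 for the interaction, where 0.0% were. At an unadjusted p under 0.05 the numbers were 0, 1 and 0, the 1 being Thy1, and limma-voom on recovered reads gave 0 calls in each. In NS, the widest differences were -0.76 for Dlk1 (95% interval -1.70 to 0.19), -0.45 for Dpp4 (-1.23 to 0.34) and 0.35 for Prdm1 (-0.07 to 0.77). In wounds they were -0.39 for Thy1, -0.36 for Ly6a (-0.90 to 0.19) and 0.32 for Prdm1 (-0.14 to 0.79). The NS intervals of Dlk1, Dpp4 and Cd24a (-0.86 to 1.55) include changes of over 2-fold. So do the wound intervals of Dlk1 (-0.79 to 1.32), Dpp4 (-0.58 to 1.16) and Cd24a (-1.26 to 1.43). By this fit, differences of that size in these 3 genes cannot be left out. With the replicate number as a block, the NS interval of Dpp4 was -0.94 to 0.049 and held no such change. The NS intervals of Dlk1 (-1.70 to 0.19) and Cd24a (-0.69 to 1.37), and the wound intervals of all 3 genes, still held one. Between same-numbered NS libraries, Prdm1 was higher in Act each time, and Lrig1 and Thy1 were lower. The other markers tested changed direction between pairs, and the block called no marker between genotypes. Among the other lineage genes, Wif1 had the widest log2FC of RPKM + 0.5 of those named here, a scale that understates changes of genes with lower levels such as Corin, with 5.88 and 3.38 RPKM in Act 5dw and 0.592, 0.872 and 0.414 in WT 5dw, but it was not called (log2FC 2.16, limma, adjusted p = 0.30).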

How the data were processed

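Fibroblast RNA was sequenced after poly-A selection as single reads of 100 bases. The authors mapped reads to GRCm38 in CLC Genomics Workbench 12 and deposited RPKM per gene symbol; how they treated strand and reads with several matches is not stated in these sources. They tested with the edgeR exact test, which needs counts and was not run.

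Whole reads were recovered from RPKM, gene length (GENCODE M21) and the mapped total, with a tolerance of 0.03. At annotated gene lengths 74.1% to 76.1% of values per library (those above 0 and under 1000 reads) came out whole. They served for Sox2 and for limma-voom.

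Genes that reached 1 RPKM in 2 or more libraries were fitted as log2(RPKM + 0.5) with limma 3.58.1 in R 4.3.3, trend on, 1 mean per group, 11 libraries, 7 residual degrees of freedom, and Benjamini-Hochberg adjustment over 11979 genes. Calls have an adjusted p under 0.05. Fold changes of low genes are understated on this scale. Exact permutation of 3 against 3 libraries cannot reach that threshold. The fit and the recovery of reads were tested on simulated data and recovered the values made.

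Lists and members were chosen with earlier results of these data known. From each list up to 3 genes are named, those with the widest change in WT wounds among the genes called in both wounding comparisons, and from each cell type list the most abundant gene; Ptk7, Mfap5, Crabp1, Meg3, Igf2, Ly6c1, Ly6e, En2, Cd34, Cd3e and the genes of the checks were added after their values were seen. Ccn3 and Itgam are not analysed here. Same-numbered libraries deviated together between WT NS and WT 5dw (correlations 0.19, 0.12 and 0.11) and between WT NS and Act NS (0.55, 0.42 and 0.33), while the pairs with Act 5dw, 2 per group, ran from -0.12 to 0.19, so a fit with the number as a block was added; the labels do not say what the numbers share. Alternatives were other pseudocounts, filters, scalings, weights and tools, the replicate block, and leaving out each library.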

Additional observations from a re-analysis of the deposited data

How the results depend on the processing

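Without each library in turn, the number of markers called in WT wounding ranged from 4 to 8 against 7, and in Act wounding from 4 to 7 against 6. The WT count was 4 without WT NS replicate 3, without WT 5dw replicate 2 or without WT 5dw replicate 3. It was 3 after median-ratio scaling and 4 after quantile normalization, while other settings gave 5 to 8. The Act count was 4 without the filter on low values, after median-ratio scaling and after quantile normalization, while other settings gave 6 or 7. Without the filter Dpp4 in Act, Ly6a in WT and Cd24a in both genotypes lost their calls. With the replicate block 8 markers were called in WT, En1 being added (-0.43, limma, adjusted p = 0.031), and 6 in Act, and the block changed no other call of a marker. Without the NS libraries numbered 1, an alternative chosen after seeing the data, 8 were called in WT and 7 in Act. No setting called a marker between genotypes or for the interaction.

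Of the marker log2FC of the 4 comparisons between groups under alternatives, 751 kept their direction and side of the threshold, 36 lost the call, 14 gained one and 23 changed sign. The changes of sign were all in values not called, except Lrig1 in WT. After median-ratio scaling Lrig1 was 0.0068 in WT and 0.033 in Act, En1 0.013 in WT, 0.15 in Act and 0.018 between NS genotypes, and Dlk1 0.24 in WT. After quantile normalization Dlk1 was 0.32 in WT, and En1 0.054 in Act and 0.0068 between NS genotypes. With array weights Dpp4 was 0.012 and En1 0.081 between NS genotypes, and Cd24a -0.091 between wounds. Leaving out 1 library gave Dlk1 -0.62 to 0.18 in WT and -0.0087 to 0.44 between wounds, En1 -0.42 to 0.036 in Act, -0.23 to 0.019 between NS genotypes and -0.12 to 0.35 between wounds, Dpp4 -0.22 to 0.80 and Cd24a -0.37 to 0.76 between wounds. The cause of these changes was not tested beyond what the scaling does to the median gene. Depth limits Sox2, which had at most 9 reads in a library.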

Other observations

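Transcripts of other cell types were low in most lists. Summed levels of 9 immune markers were 10.2 to 18.8 RPKM in NS and 8.44 to 13.3 in 5dw, led by Cd68 (means 8.32 and 5.55). The 8 vascular markers summed to 22.4 to 39.7 and 21.9 to 28.8, led by Tek (21.9 and 6.74), whose pattern was second most like that of Dpp4 (r = 0.984 over 11 libraries), after Chrdl1 (0.993). The 6 pericyte markers summed to 12.9 to 21.1 and 11.01 to 18.9, the 6 sebocyte markers to 72.9 to 122 and 53.8 to 62.6, led by Mgst1, and the 6 B and plasma cell markers to 1.43 to 2.43 and 2.10 to 2.76, with Ms4a1 at 0 in all libraries. In the T cell list Cd3e made up most of the wound sum of 58.3 to 106 RPKM.

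Of the 10 dermal papilla genes tested, 6 were higher and 1 was lower in both Act wound libraries than in all 3 WT wound libraries, and of the 10 papillary genes 4 were higher and 1 was lower, against 7.87% higher and 15.2% lower among all genes tested. No gene of either list was called between wounds, and the median log2FC of the lists was 0.41 and -0.088, so the papillary list as a whole was not higher. The genes that follow were chosen after their values were seen. Corin measured 1.80 and 1.07 RPKM against 0.0373, 0.0287 and 0.0191 (limma, adjusted p = 1.0), Rspo1 0.854 and 0.846 against 0.260, 0.440 and 0.346 (limma, adjusted p = 0.66), and Alpl 1.14 and 0.571 against 0.212, 0.262 and 0.262 (limma, adjusted p = 1.0). In the same comparison Crabp1 was lower in both Act libraries, with 45.3 and 56.9 RPKM against 119, 69.6 and 99.8 (limma, adjusted p = 1.0). The interaction was called for none of these 4 genes.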
